A study of Bos taurus with 45 samples.

Results

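The genes described here encode the mitogen-activated protein kinase (MAPK) cascade and the dual-specificity phosphatases (DUSP). They were chosen by symbol as every MAPK, MAP2K, MAP3K, MAP4K, MKNK, MAPKAPK, RPS6KA, RPS6KB and DUSP gene with a number, without regard to expression. The rule found 80 of the 27270 genes in the endometrial count table, of which 77 passed the low-count filter, and 77 of the 16149 genes in the conceptus count table, of which 76 passed. DUSP13, DUSP21 and DUSP29 were too low in endometrium (39, 6 and 31 reads over all libraries), as was MAPK10 in conceptus tissue (168 reads). DUSP2, DUSP21 and MAP3K19 were not analysed in conceptus tissue.

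Bovine tissue was taken on Day 16, from cyclic heifers for intercaruncular endometrial explants and from heifers bred by artificial insemination for IVD conceptus sections. Each piece was cultured for 12 h in RPMI medium, either as a conceptus section overlying an endometrial explant (co-culture, Endo-IVD Conc) or by itself (mono-culture, IVD Conc or Endo). Poly(A) RNA sequencing covered 9 co-cultured and 8 mono-cultured conceptus libraries, and 15 co-cultured and 13 mono-cultured endometrial libraries. These are the libraries as labelled, and for mono-cultured conceptuses their number differs from that in the study's text. All endometrium came from cyclic heifers, so the mono-cultured explants had met no conceptus and the co-cultured explants met one only in culture. The 9 co-cultured conceptus libraries came from 7 conceptuses, all of which were also mono-cultured, and 2 of them gave 2 sections each. The 15 co-cultured explants came from 11 uteri, all of which were also mono-cultured, and 4 of them gave 2 explants each. Libraries from 1 animal are therefore not independent, and edgeR models with the animal as a block are given wherever they changed a member's call, both with each library kept and with the co-cultures of 1 animal summed. Culture partners were shared as well. The 15 co-cultured explants met 9 conceptuses, and the 9 co-cultured conceptus sections lay on explants of 6 uteri. No model included the partner, so animals that shared one are not independent exposures.

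In the MAPK cascade, a MAP kinase kinase kinase (MAP3K) phosphorylates a MAP kinase kinase (MAP2K), which phosphorylates a MAPK, and the MAP4K enzymes act upstream of several MAP3K. Growth factor receptors act mainly through RAS, RAF, MEK and ERK, whereas stress and cytokines act mainly through JNK and p38, and the activated MAPK phosphorylate further kinases (RSK, MSK, MNK and MK) as well as transcription factors. The typical DUSP, or MAPK phosphatases, remove the activating phosphates, and several are themselves transcribed in response to MAPK activity, whereas the atypical DUSP lack the MAPK-binding domain and many have other substrates. Transcript abundance, which was measured here, is not a measure of phosphorylation or kinase activity.

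Total counts ranged from 58.6M to 92.0M reads in co-cultured and from 65.5M to 104.4M in mono-cultured conceptus libraries, and from 48.7M to 64.0M in co-cultured and from 44.2M to 61.5M in mono-cultured endometrial libraries. Levels are given as CPM, the reads of a gene relative to the reads of its library, with library sizes scaled by the trimmed mean of M-values (TMM), and because gene lengths were not used, levels were compared between libraries and not between genes. The summed CPM of 14 trophoblast markers was 11544 to 62764 in co-cultured and 4289 to 64512 in mono-cultured conceptus tissue, and the stromal markers HOXA10 and HOXA11 were not analysed there. The summed CPM of 10 stromal markers was 3785 to 10082 in co-cultured and 4130 to 20872 in mono-cultured endometrium. Some marker genes of other cell types moved with culture. In conceptus tissue, the erythroid genes HBA and HBM rose, and the 3 erythroid markers analysed summed to 1.69 to 73.9 CPM in co-culture and 1.43 to 9.28 CPM in mono-culture. The 5 endometrial epithelial markers analysed summed to 99.4 to 345 CPM in co-cultured and 81.3 to 123 CPM in mono-cultured conceptus tissue, and none of them passed the edgeR test (1 at an unadjusted p under 0.05, and 1 called by DESeq2). In endometrium, the smooth muscle genes ACTG2, MYH11 and DES were called higher and the endothelial genes PECAM1 and EMCN lower. The 8 smooth muscle markers summed to 493 to 9519 CPM in co-culture and 280 to 1783 CPM in mono-culture. The medians of these sums were similar, at 1132 CPM in co-culture and 1176 CPM in mono-culture. The 3 highest smooth muscle sums were those of both co-cultured explants of uterus 38 (9519 and 3644 CPM) and that of uterus 69 (5491 CPM), and endometrial results were therefore recomputed without these uteri. The part of the other cell types in the results was not tested.

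Co-culture changed 10 of the 76 cascade genes tested in conceptus tissue (6 higher and 4 lower) and 6 of the 77 tested in endometrium (5 higher and 1 lower), at an adjusted p of at most 0.05 in edgeR's quasi-likelihood test with Benjamini-Hochberg adjustment over all genes. Of all genes tested, 7.24% were called in conceptus tissue, 3.59% higher and 3.65% lower, and 7.13% in endometrium, 4.98% higher and 2.15% lower. The members' shares were 13.2% in conceptus tissue and 7.79% in endometrium, so the endometrial share was near that of all genes. Neither share was tested against that of all genes. With the conceptus as a block, 3 members were called higher and 2 lower, and 4.43% of all genes were called. With 2 RUVr factors (unwanted variation estimated from residuals), 9 conceptus members were called higher and 10 lower, and 28.9% of all genes were called. The median log2 fold change of the members was 0.01 in conceptus tissue, against 0.01 for all genes tested, and -0.02 in endometrium, against -0.04 for all genes tested. No gene of the cascade was called in both tissues. In bulk tissue, fewer cells of a type and less RNA per cell cannot be told apart.

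**Figure D1:**
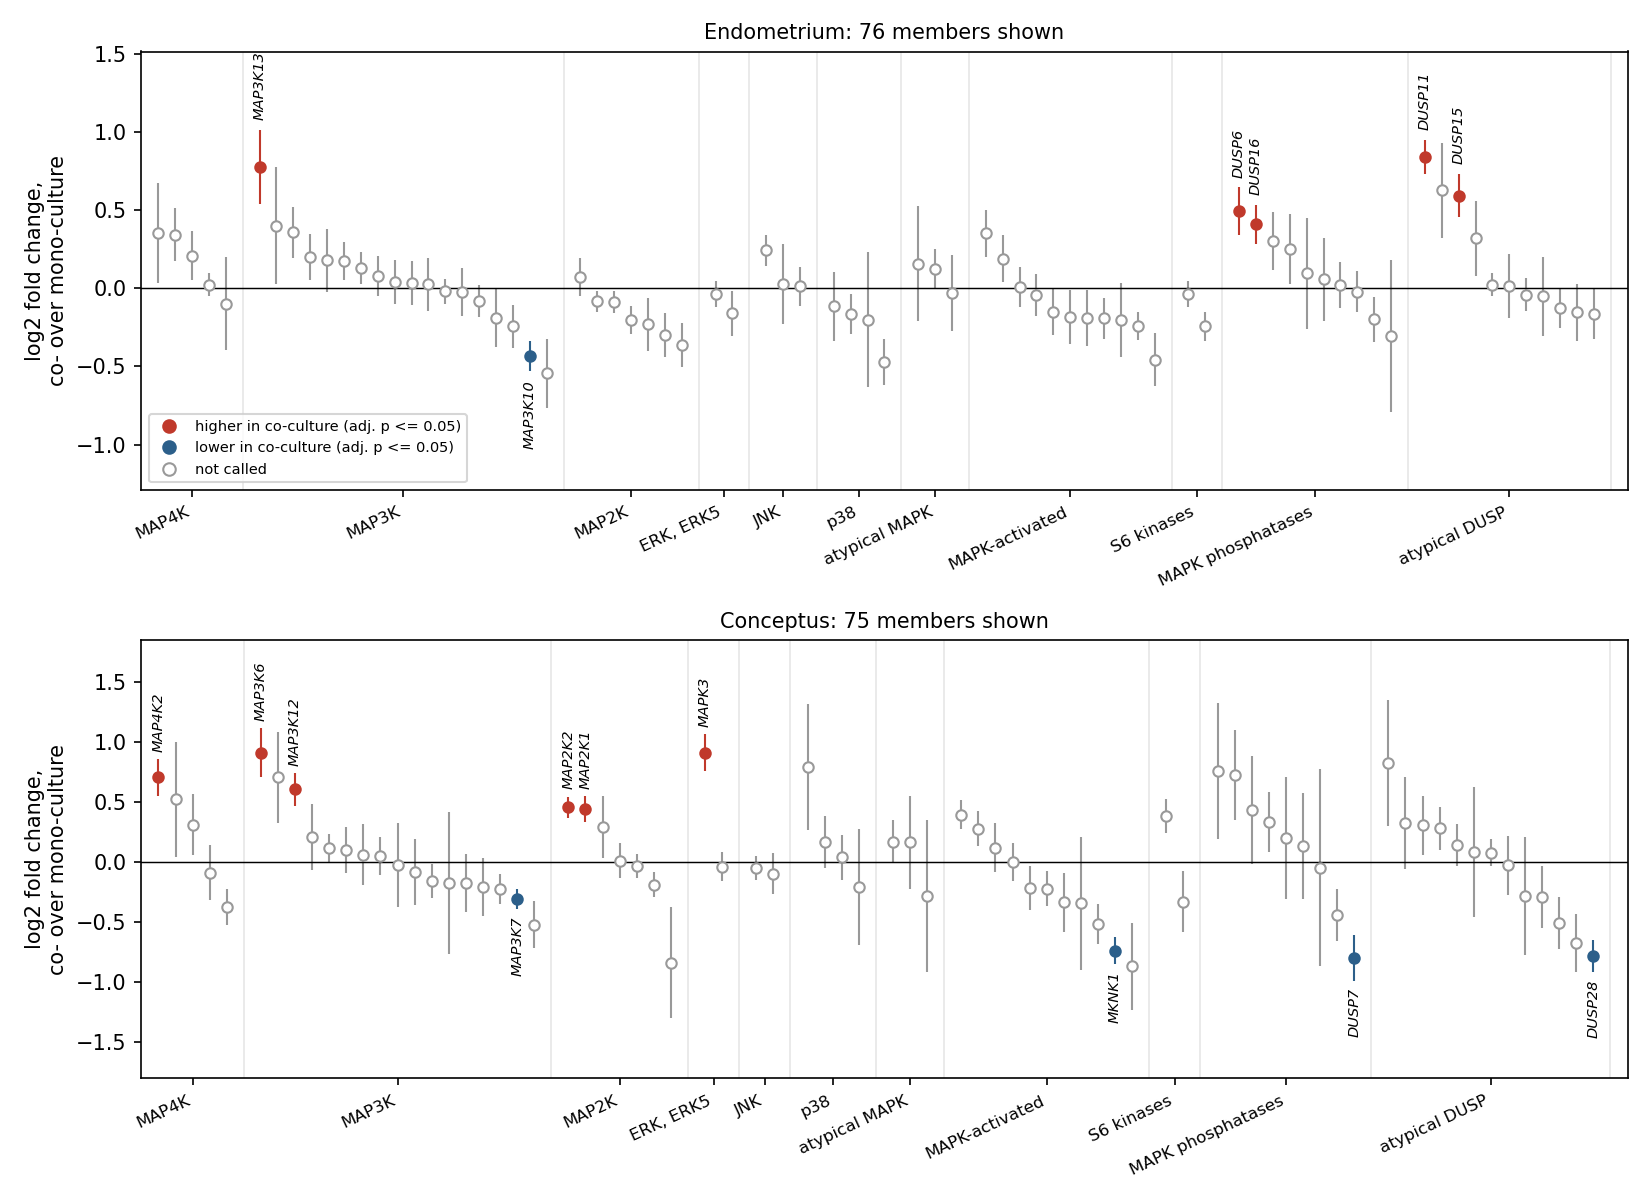
Log2 fold changes of co- over mono-culture for the cascade genes that passed the low-count filter, by role, in endometrium (76 genes shown, upper panel) and conceptus tissue (75 genes shown, lower panel). Points are edgeR estimates and bars their standard errors; filled red points were called higher (5 and 6 genes), filled blue points lower (1 and 4 genes) and open points were not called.

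MKNK1, which encodes the kinase MNK1 that ERK and p38 activate and that phosphorylates the cap-binding translation factor eIF4E, fell in co-cultured conceptus tissue. Its level was 13.2 to 20.4 CPM (median 17) in the 9 co-cultured libraries, against 22.5 to 33.0 CPM (median 28.8) in the 8 mono-cultured libraries. The ranges did not overlap, which held for 1.17% of all genes tested and 4 of the 76 members in conceptus tissue. MKNK1 averaged 16.8 ± 2.49 CPM in co-culture and 27.9 ± 3.72 CPM in mono-culture (SD, n = 9 and 8 libraries), a log2 fold change of -0.74 ± 0.11 (SE) or 1.67-fold lower, with an edgeR adjusted p of 0.0065. It was lower in co-culture in each of the 7 conceptuses with both cultures, and with the conceptus as a block the log2 fold change was -0.70 with an edgeR adjusted p of 0.0300. Its relative MKNK2, which encodes the more constitutively active MNK2, averaged 145 ± 12.1 CPM in co-culture and 145 ± 47.1 CPM in mono-culture (log2 fold change 0.00 ± 0.16, edgeR adjusted p = 0.996). MKNK1 accordingly made up 7.72% to 12.4% (median 10.8%) of the summed CPM of both MNK genes in co-culture, against 10.3% to 26.5% (median 17.1%) in mono-culture, and these ranges overlapped.

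MAPK3, which encodes ERK1, rose in co-cultured conceptus tissue. Its level was 73.5 to 141 CPM (median 111) in co-culture and 38.7 to 72.8 CPM (median 57.6) in mono-culture. Every co-cultured library was above every mono-cultured one, although the lowest co-cultured and the highest mono-cultured library were close. MAPK3 averaged 107 ± 22.2 CPM in co-culture and 56.9 ± 11.8 CPM in mono-culture, a log2 fold change of 0.91 ± 0.15 (1.88-fold higher, edgeR adjusted p = 0.0084), and was higher in 7 of 7 conceptuses. In RefSeq (assembly ARS-UCD2.0) the MAPK3 gene overlaps GDPD3, a phospholipase gene, and reads of the pair cannot be told apart because no source used here states whether counting was by strand. GDPD3 also rose, with a log2 fold change of 1.14 ± 0.30 (edgeR adjusted p = 0.0351), but averaged only 1.05 CPM in co-culture and 0.476 CPM in mono-culture.

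**Figure D2:**
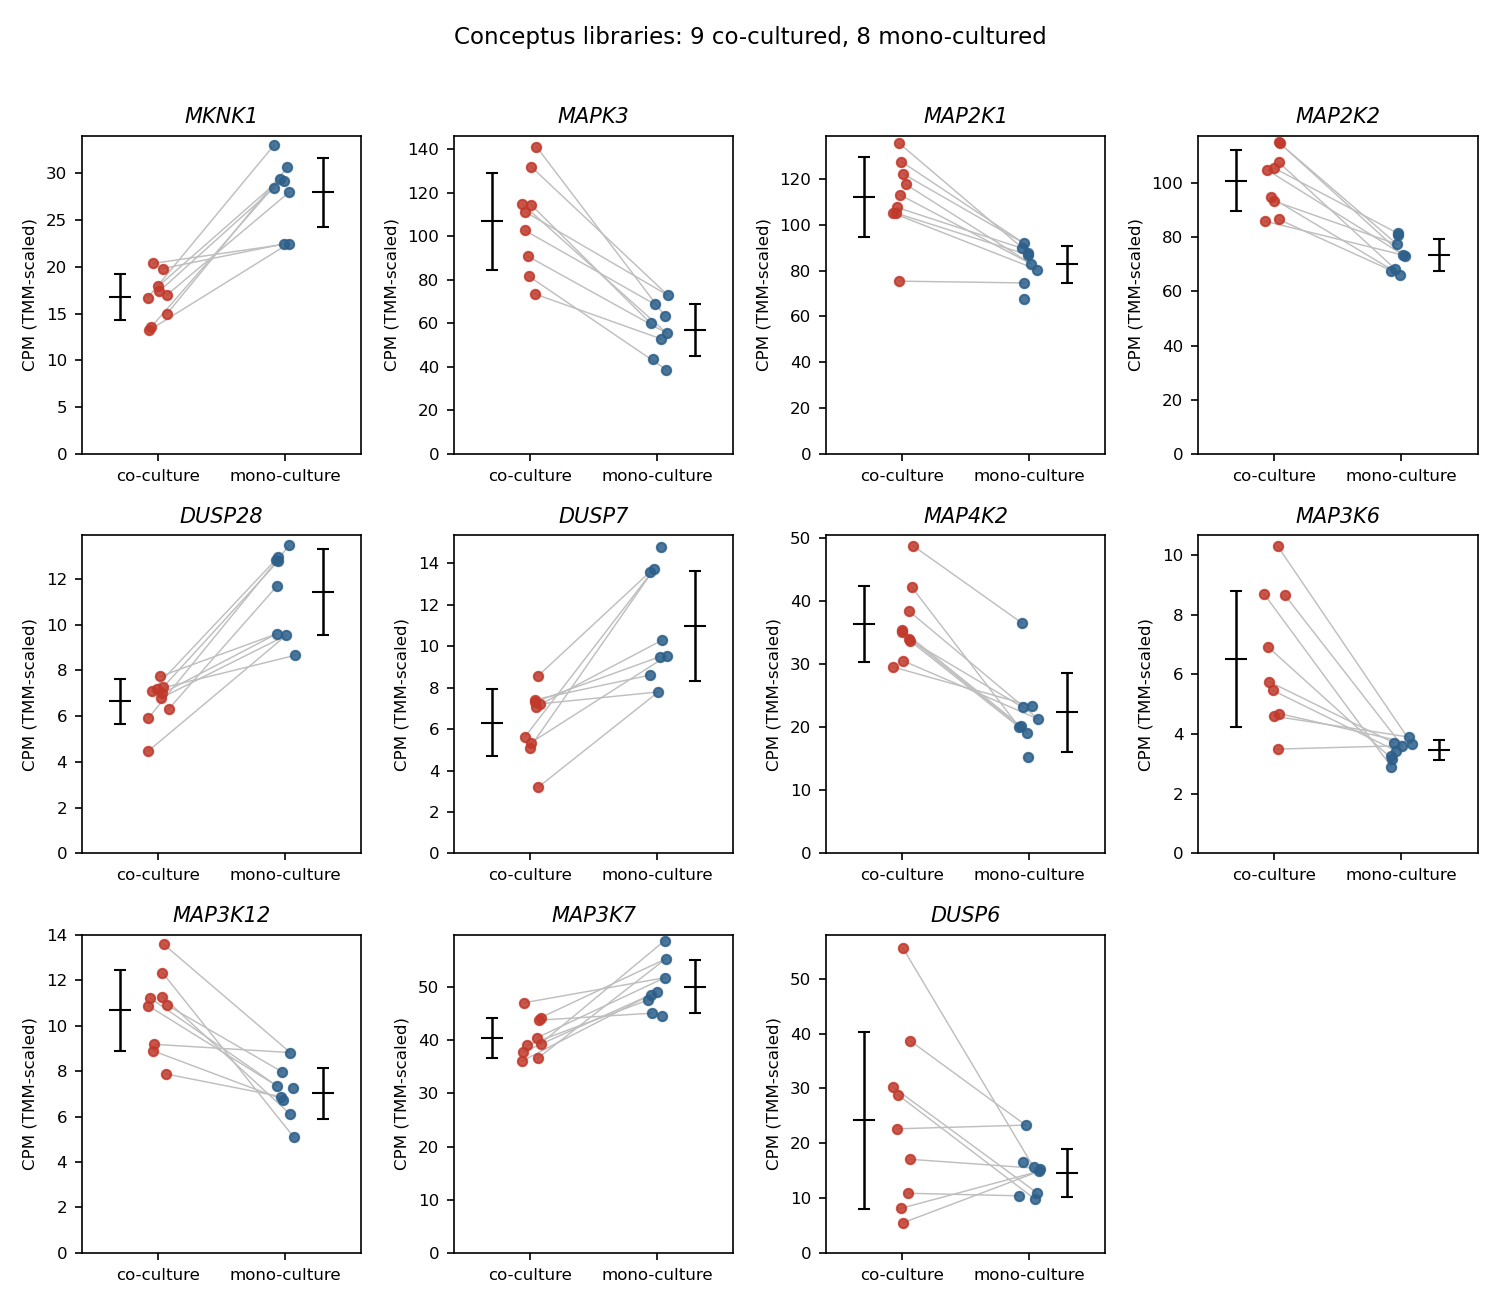
TMM-scaled CPM (vertical axes from 0) of 11 cascade genes in 9 co-cultured (red, left) and 8 mono-cultured (blue, right) conceptus libraries. Grey lines join libraries of 1 conceptus and black bars are the mean ± SD; MKNK1, MAPK3, MAP2K2 and DUSP28 show no overlap between cultures, whereas DUSP6 overlaps.

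Both kinases that phosphorylate ERK were more abundant in co-cultured conceptus tissue. MAP2K2, encoding MEK2, was at 85.9 to 115 CPM (median 105) in co-culture and 66.2 to 81.5 CPM (median 73.2) in mono-culture, with no overlap. Its log2 fold change was 0.46 ± 0.09 (1.37-fold higher, edgeR adjusted p = 0.0104), and it was higher in 7 of 7 conceptuses. MAP2K1, encoding MEK1, was at 75.4 to 135 CPM (median 113) in co-culture and 67.8 to 91.8 CPM (median 84.8) in mono-culture. The ranges of MAP2K1 overlapped only through 1 co-cultured section, from conceptus 50, which at 75.4 CPM lay within the mono-cultured range, whereas the next lowest was 105 CPM. The log2 fold change of MAP2K1 was 0.44 ± 0.11 (1.36-fold higher, edgeR adjusted p = 0.0265), and it too was higher in 7 of 7 conceptuses. MAP2K1 overlaps SNAPC5 in RefSeq, which averaged 1.09 CPM in co-culture and 1.59 CPM in mono-culture. With the conceptus as a block its edgeR adjusted p was 0.0535, or 0.0332 with co-cultures summed, and leaving out any conceptus other than 50 also took it past the threshold (edgeR adjusted p 0.0505 to 0.104). The other 5 MAP2K genes, which serve p38, JNK and ERK5, were not called in conceptus tissue by DESeq2 or by edgeR with culture as the only term. None of the 5 had an unadjusted edgeR p under 0.05. With 2 RUVr factors, edgeR called MAP2K5 higher (log2 fold change 0.26, adjusted p = 0.0368), in a model that called 28.9% of all genes. Among the 5, MAP2K4 averaged 73.3 ± 12.9 CPM in co-culture and 83.4 ± 3.41 CPM in mono-culture (log2 fold change -0.19 ± 0.11, edgeR adjusted p = 0.291).

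Further upstream, 4 of the 22 MAP3K and MAP4K genes tested in conceptus tissue were called. MAP4K2, encoding germinal center kinase, an activator of the JNK branch, was at 29.6 to 48.8 CPM (median 35.1) in co-culture and 15.3 to 36.6 CPM (median 20.7) in mono-culture. The overlap came from 1 mono-cultured section, from conceptus 22, at 36.6 CPM, with the next highest at 23.4 CPM, and the co-cultured section of conceptus 22 was the highest of all at 48.8 CPM. The log2 fold change of MAP4K2 was 0.70 ± 0.15 (1.63-fold higher, edgeR adjusted p = 0.0155). MAP3K6, encoding the stress-responsive kinase ASK2, was at 3.50 to 10.3 CPM (median 5.76) in co-culture and 2.91 to 3.90 CPM (median 3.53) in mono-culture, a log2 fold change of 0.91 ± 0.20 (1.88-fold higher, edgeR adjusted p = 0.0175). The co-cultured range of MAP3K6 was wide and only its lowest library, a section of conceptus 47, lay within the mono-cultured range. MAP3K12, encoding the dual leucine zipper kinase DLK of the JNK branch, was at 7.87 to 13.6 CPM (median 10.9) in co-culture and 5.10 to 8.82 CPM (median 7.06) in mono-culture, a log2 fold change of 0.60 ± 0.14 (1.52-fold higher, edgeR adjusted p = 0.0188). MAP3K7, encoding TAK1, which acts downstream of TGF-beta and inflammatory receptors, was at 36.1 to 47.0 CPM (median 39.3) in co-culture and 44.5 to 58.7 CPM (median 48.8) in mono-culture, a log2 fold change of -0.31 ± 0.09 (1.24-fold lower, edgeR adjusted p = 0.0419). The ranges of MAP3K12 and MAP3K7 overlapped, and each of these 4 genes moved the same way in 7 of 7 conceptuses.

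The upstream calls varied more with the model and the animals used than those of MKNK1, MAPK3 and MAP2K2. With the conceptus as a block, the edgeR adjusted p was 0.0623 for MAP3K6, 0.0536 for MAP3K12 and 0.0620 for MAP3K7, while MAP4K2 kept its call at 0.0240. With the block and co-cultures summed all 4 were called, with edgeR adjusted p of 0.0195 for MAP3K6, 0.0339 for MAP3K12, 0.0308 for MAP3K7 and 0.0096 for MAP4K2. Leaving out conceptus 8, 26 or 71 ended the call of all 4 genes, leaving out conceptus 47 ended it for MAP4K2, MAP3K12 and MAP3K7, and leaving out conceptus 22 or 66 ended it for MAP3K7 (edgeR adjusted p from 0.0509 to 0.111). The share of all genes called was also lower without these conceptuses, at 0.658% without conceptus 26, 1.2% without conceptus 8, 1.43% without conceptus 71 and 2.03% without conceptus 47, against 7.24% with all. The closely related ASK1 gene, MAP3K5, averaged 19.1 ± 4.41 CPM in co-culture and 27.5 ± 8.72 CPM in mono-culture and was not called (log2 fold change -0.52 ± 0.20, edgeR adjusted p = 0.107).

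Of the 9 MAPK phosphatase genes tested in conceptus tissue, 1 was called. DUSP7, encoding a cytoplasmic phosphatase selective for ERK, was at 3.19 to 8.56 CPM (median 7.08) in co-culture and 7.80 to 14.8 CPM (median 9.92) in mono-culture. It was lower in 7 of 7 conceptuses, and only the highest co-cultured library reached into the mono-cultured range. The log2 fold change was -0.80 ± 0.19 (1.74-fold lower, edgeR adjusted p = 0.0229), with an edgeR adjusted p of 0.0566 with the conceptus as a block (0.0259 with co-cultures summed), and of 0.0688, 0.117 and 0.0594 without conceptus 8, 26 and 71. DUSP6, which encodes the other widely expressed cytoplasmic ERK phosphatase and is an established transcriptional target of ERK signaling, was at 5.50 to 55.6 CPM (median 22.6) in co-culture and 9.82 to 23.3 CPM (median 15.2) in mono-culture. The mono-cultured range of DUSP6 lay within the co-cultured range, and the difference was not called (log2 fold change 0.73 ± 0.37, edgeR adjusted p = 0.238, higher in 6 of 7 conceptuses). The inducible nuclear phosphatases were just as scattered. DUSP1 was at 27.0 to 289 CPM (median 101) in co-culture and 24.7 to 153 CPM (median 102) in mono-culture, with overlapping ranges. DUSP4 was at 5.18 to 102 CPM (median 29.3) in co-culture and 0.892 to 36.4 CPM (median 22.1) in mono-culture, and DUSP5 at 11.4 to 88.1 CPM (median 35.2) in co-culture and 8.42 to 61.5 CPM (median 38.4) in mono-culture. Their log2 fold changes were 0.43 ± 0.45, 0.76 ± 0.57 and 0.14 ± 0.44 (edgeR adjusted p = 0.599, 0.436 and 0.885), and their standard errors were all above the 0.19 of DUSP7. DUSP10, encoding a phosphatase of JNK and p38, had at most 1.65 CPM in co-culture and 2.84 CPM in mono-culture.

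Among the 13 atypical DUSP genes tested in conceptus tissue, DUSP28 alone was called by edgeR with culture as the only term. DESeq2 also called DUSP19 lower (adjusted p = 0.0409). With 2 RUVr factors, edgeR called DUSP19 and DUSP18 lower (adjusted p = 0.0124 and 0.0315). DUSP28 was at 4.47 to 7.74 CPM (median 7.00) in co-culture and 8.67 to 13.5 CPM (median 12.2) in mono-culture, with no overlap. The log2 fold change was -0.78 ± 0.13 (1.72-fold lower, edgeR adjusted p = 0.0090, lower in 7 of 7 conceptuses), and the call held with the conceptus as a block (edgeR adjusted p = 0.0315). In RefSeq, DUSP28 overlaps an uncharacterized gene, LOC112446052, which was not matched to the count tables.

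Below the MAPK, 1 of the 11 kinases that MAPK activate, MKNK1, was called in conceptus tissue, and both RPS6KB genes, which encode S6 kinases of the mTOR branch, were not. Several of the others moved one way in every conceptus without passing the test on unblocked libraries, and some passed in other models. RPS6KA3, encoding RSK2, averaged 16.7 ± 4.00 CPM in co-culture and 23.8 ± 5.47 CPM in mono-culture, lower in 7 of 7 conceptuses (log2 fold change -0.51 ± 0.17, edgeR adjusted p = 0.0680, DESeq2 adjusted p = 0.0296). RPS6KA4, encoding MSK2, a histone kinase downstream of ERK and p38, averaged 30.8 ± 6.10 CPM in co-culture and 23.4 ± 2.55 CPM in mono-culture, higher in 7 of 7 conceptuses (log2 fold change 0.40 ± 0.12, edgeR adjusted p = 0.0543, DESeq2 adjusted p = 0.0137). RPS6KB2, MAPK13 and MAPKAPK5 also had the same sign in all 7 conceptuses. With the conceptus as a block and co-cultures summed, 7 further members were called by edgeR. That model also called more of all genes, 14.7% against 7.24% without the block. Of these, MAPK13, encoding p38 delta, had a log2 fold change of 0.93 (adjusted p = 0.0096), RPS6KA4 0.40 (0.0219), RPS6KB2 0.33 (0.0418), RPS6KA3 -0.38 (0.0487), RPS6KB1 -0.41 (0.0373), RPS6KA5, encoding MSK1, -0.76 (0.0356) and the atypical phosphatase gene DUSP19 -0.67 (0.0388). None of these 7, named after their values were seen, was called with the block and each library kept. In total 15 of 76 members had the same sign in all 7, 9 higher and 6 lower, and they included all 10 that were called. The share of all genes with 1 sign in all 7 was not computed. Signs and calls came from the same libraries. The stress-activated MAPK genes MAPK8 and MAPK9, encoding JNK1 and JNK2, MAPK14, encoding p38 alpha, and MAPK7, encoding ERK5, had log2 fold changes from -0.10 to 0.04 in conceptus tissue, with edgeR adjusted p of 0.779, 0.807, 0.926 and 0.888.

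In endometrium, the member with the lowest adjusted p was DUSP11, an atypical DUSP that acts on the phosphates at the ends of RNA molecules rather than on MAPK. DUSP11 was at 67.8 to 134 CPM (median 90.8) in the 15 co-cultured libraries and 37.9 to 63.3 CPM (median 52.8) in the 13 mono-cultured libraries. The ranges did not overlap, which held for 1.23% of all genes tested and 1 of the 77 members in endometrium. DUSP11 averaged 94.5 ± 21.1 CPM in co-culture and 52.7 ± 8.30 CPM in mono-culture, a log2 fold change of 0.84 ± 0.11 (1.79-fold higher, edgeR adjusted p = 9.7e-07). It was the only member with the same sign in all 11 uteri with both cultures. In conceptus tissue, DUSP11 averaged 38.9 ± 5.94 CPM in co-culture and 36.8 ± 4.37 CPM in mono-culture (log2 fold change 0.08 ± 0.11, edgeR adjusted p = 0.706).

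A second atypical DUSP also rose. DUSP15 was at 5.09 to 9.06 CPM (median 6.4) in co-cultured and 2.31 to 7.20 CPM (median 3.90) in mono-cultured endometrium. The ranges overlapped, but 10 of 11 uteri were higher in co-culture, and the log2 fold change was 0.59 ± 0.14 (1.51-fold higher, edgeR adjusted p = 0.0056). DUSP11 and DUSP15 kept their calls without uteri 38 and 69 and in every other alternative run.

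Of the 10 MAPK phosphatase genes tested in endometrium, DUSP6 and DUSP16 were called. DUSP6 was at 112 to 301 CPM (median 164) in co-culture and 74.0 to 172 CPM (median 142) in mono-culture. Its 3 highest values, 275 to 301 CPM, were the 2 co-cultured explants of uterus 19 and that of uterus 54. DUSP6 averaged 186 ± 58.9 CPM in co-culture and 132 ± 32.5 CPM in mono-culture, a log2 fold change of 0.50 ± 0.15 (1.41-fold higher, edgeR adjusted p = 0.0430, higher in 10 of 11 uteri). DUSP16, encoding a phosphatase of JNK and p38, was at 18.1 to 39.6 CPM (median 27.2) in co-culture and 15.1 to 30.7 CPM (median 19.3) in mono-culture, a log2 fold change of 0.41 ± 0.13 (1.33-fold higher, edgeR adjusted p = 0.0441, higher in 10 of 11 uteri). Both calls lay close to the threshold. DUSP6 lost its call without uterus 14, 19, 39, 45, 53, 54, 56 or 70 (edgeR adjusted p 0.0559 to 0.117), and DUSP16 without uterus 14, 15, 38, 45, 54, 56, 69 or 70 (edgeR adjusted p 0.0578 to 0.113). Without uteri 38 and 69 together, the edgeR adjusted p was 0.0220 for DUSP6 and 0.192 for DUSP16.

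The inducible phosphatase DUSP1 had levels of 719 to 2486 CPM (median 1344) in co-cultured and 462 to 3184 CPM (median 1160) in mono-cultured endometrium and was not called (log2 fold change 0.06 ± 0.26, edgeR adjusted p = 0.942). The co-cultured range of DUSP1 lay within the mono-cultured range. DUSP5 averaged 96.8 ± 29.1 CPM in co-culture and 78.3 ± 35.5 CPM in mono-culture, was higher in 10 of 11 uteri, and was not called (log2 fold change 0.30 ± 0.19, edgeR adjusted p = 0.386). DUSP4 and DUSP10 had log2 fold changes of 0.10 ± 0.35 and -0.02 ± 0.13 (edgeR adjusted p = 0.925 and 0.958).

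**Figure D3:**
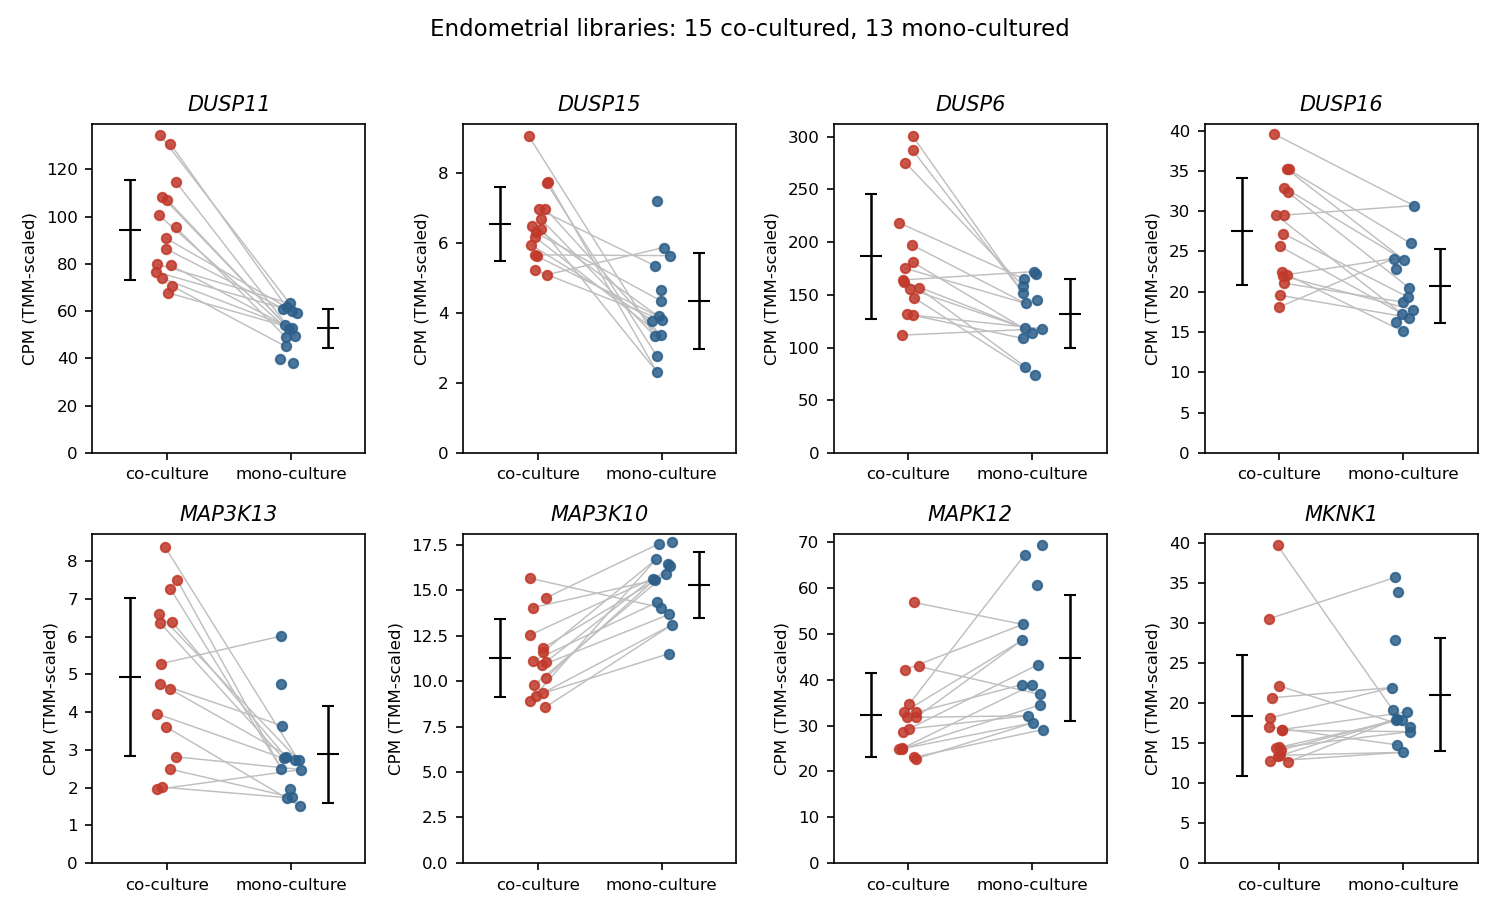
TMM-scaled CPM (vertical axes from 0) of 8 cascade genes in 15 co-cultured (red, left) and 13 mono-cultured (blue, right) endometrial libraries. Grey lines join libraries of 1 uterus and black bars are the mean ± SD; DUSP11 shows no overlap between cultures, whereas the other genes overlap.

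Of the 18 MAP3K genes tested in endometrium, 2 mixed-lineage kinase genes moved in opposite directions. MAP3K10, encoding MLK2, an activator of JNK, was at 8.56 to 15.7 CPM (median 11.1) in co-culture and 11.5 to 17.6 CPM (median 15.6) in mono-culture. It averaged 11.3 ± 2.14 CPM in co-culture and 15.3 ± 1.82 CPM in mono-culture, a log2 fold change of -0.44 ± 0.10 (1.35-fold lower, edgeR adjusted p = 0.0025, lower in 10 of 11 uteri). Only uterus 16 had a higher level of MAP3K10 in co-culture, at 15.7 CPM, against 14.0 CPM in mono-culture. MAP3K10 overlaps TTC9B in RefSeq, which was not tested. MAP3K13, encoding the leucine zipper kinase LZK, a relative of DLK, was at 1.95 to 8.38 CPM (median 4.75) in co-culture and 1.51 to 6.02 CPM (median 2.72) in mono-culture, a log2 fold change of 0.78 ± 0.24 (edgeR adjusted p = 0.0419, higher in 9 of 11 uteri). The call of MAP3K13 was lost without uterus 14, 15, 16, 38, 39, 53, 56 or 69 (edgeR adjusted p 0.0516 to 0.157), and its edgeR adjusted p was 0.219 without uteri 38 and 69 together. The 2 co-cultured explants of uterus 38 had 7.28 and 7.51 CPM of MAP3K13, against 2.5 CPM in its mono-cultured explant.

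None of the 20 MAPK and MAP2K genes tested was called in endometrium by edgeR with culture as the only term. Of the 20, 5 had an unadjusted edgeR p under 0.05, and DESeq2 called 1, MAPK12. MAPK12, encoding p38 gamma, was at 22.7 to 56.9 CPM (median 31.8) in co-culture and 29.1 to 69.5 CPM (median 39) in mono-culture, lower in 10 of 11 uteri (log2 fold change -0.47 ± 0.15, edgeR adjusted p = 0.0513). With the uterus as a block its edgeR adjusted p was 0.0107, or 0.0234 with co-cultures summed, and without uteri 38 and 69 it was 0.0247. MAP2K5, encoding the activator of ERK5, averaged 10.1 ± 2.57 CPM in co-culture and 13.0 ± 3.66 CPM in mono-culture, with an edgeR adjusted p of 0.0421 with the uterus as a block, 0.0312 with co-cultures summed as well, and 0.127 without the block. Both genes were singled out after their values were seen. MAPK3, which rose in conceptus tissue, averaged 145 ± 17.8 CPM in co-cultured and 148 ± 22.0 CPM in mono-cultured endometrium (log2 fold change -0.04 ± 0.08, edgeR adjusted p = 0.868). MAPK7, MAPK9 and MAPK14 had log2 fold changes of -0.16 ± 0.14, 0.01 ± 0.13 and -0.16 ± 0.13 (edgeR adjusted p = 0.602, 0.976 and 0.523). MAPK8 averaged 59.0 ± 10.3 CPM in co-culture and 49.9 ± 9.06 CPM in mono-culture, higher in 10 of 11 uteri, and was not called (log2 fold change 0.24 ± 0.10, edgeR adjusted p = 0.150). With 2 RUVr factors, edgeR called MAPK8 higher (adjusted p = 0.0116) and MAPK12 and MAP2K5 lower (0.0021 and 0.0013). That model called 17.2% of all genes, against 7.13% without the factors.

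None of the 11 kinases activated by MAPK was called in endometrium by DESeq2 or by edgeR with culture as the only term. Of the 11, 3 had an unadjusted edgeR p under 0.05. MKNK1 was at 12.6 to 39.7 CPM (median 16.6) in co-culture and 13.8 to 35.7 CPM (median 18) in mono-culture, with overlapping ranges (log2 fold change -0.19 ± 0.18, edgeR adjusted p = 0.616). Its highest value, 39.7 CPM, was the co-cultured explant of uterus 16, whose mono-cultured explant had 19.2 CPM. MAPKAPK2, encoding MK2, the p38-activated kinase that stabilizes inflammatory mRNA, averaged 98.1 ± 7.89 CPM in co-culture and 116 ± 25.4 CPM in mono-culture (log2 fold change -0.24 ± 0.09, edgeR adjusted p = 0.0954). RPS6KA2, encoding RSK3, averaged 26.9 ± 8.87 CPM in co-culture and 37.0 ± 12.2 CPM in mono-culture (log2 fold change -0.46 ± 0.17, edgeR adjusted p = 0.105). With 2 RUVr factors, edgeR called both MAPKAPK2 and RPS6KA2 lower (adjusted p = 0.0140 and 0.0442), in a model that called 17.2% of all genes.

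Because a call in 1 tissue and none in the other does not show a difference between them, the within-animal difference of log2 CPM (co- minus mono-culture) was compared between the 11 uteri and the 7 conceptuses with limma, taking uteri and conceptuses that had shared a culture as independent. At a limma adjusted p of at most 0.05, 19 of 74 members (25.7%) differed, against 24.6% of all 12406 genes tested in both tissues, shares that were not tested against each other. The response of MKNK1 averaged -0.02 ± 0.43 in uteri and -0.71 ± 0.31 in conceptuses (SD), a difference of 0.69 ± 0.19 (SE, limma adjusted p = 0.0148). The response of MAPK3 averaged -0.05 ± 0.15 in uteri and 0.83 ± 0.25 in conceptuses, a difference of -0.89 ± 0.13 (limma adjusted p = 1.1e-04), and that of MAP2K2 -0.15 ± 0.18 and 0.47 ± 0.11, a difference of -0.62 ± 0.10 (limma adjusted p = 2.9e-04). In each of these 3 genes all 7 conceptuses moved one way. The uteri were lower in 8 of 11 for MKNK1, the direction of the conceptuses, 7 of 11 for MAPK3 and 9 of 11 for MAP2K2. For MKNK1, the largest difference of any uterus was 1.05, in uterus 16. DUSP16 showed opposite average signs, 0.36 ± 0.28 in uteri, higher in 10 of 11, and -0.41 ± 0.59 in conceptuses, higher in 2 of 7 (difference 0.77 ± 0.20, limma adjusted p = 0.0096). The response of DUSP6 averaged 0.53 ± 0.37 in uteri and 0.61 ± 1.07 in conceptuses, and a difference (-0.08 ± 0.34, SE) was not detectable (limma adjusted p = 0.893). With only the first co-culture of each animal, MKNK1, DUSP7 and MAP3K6 had limma adjusted p of 0.0578, 0.0511 and 0.213.

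**Figure D4:**
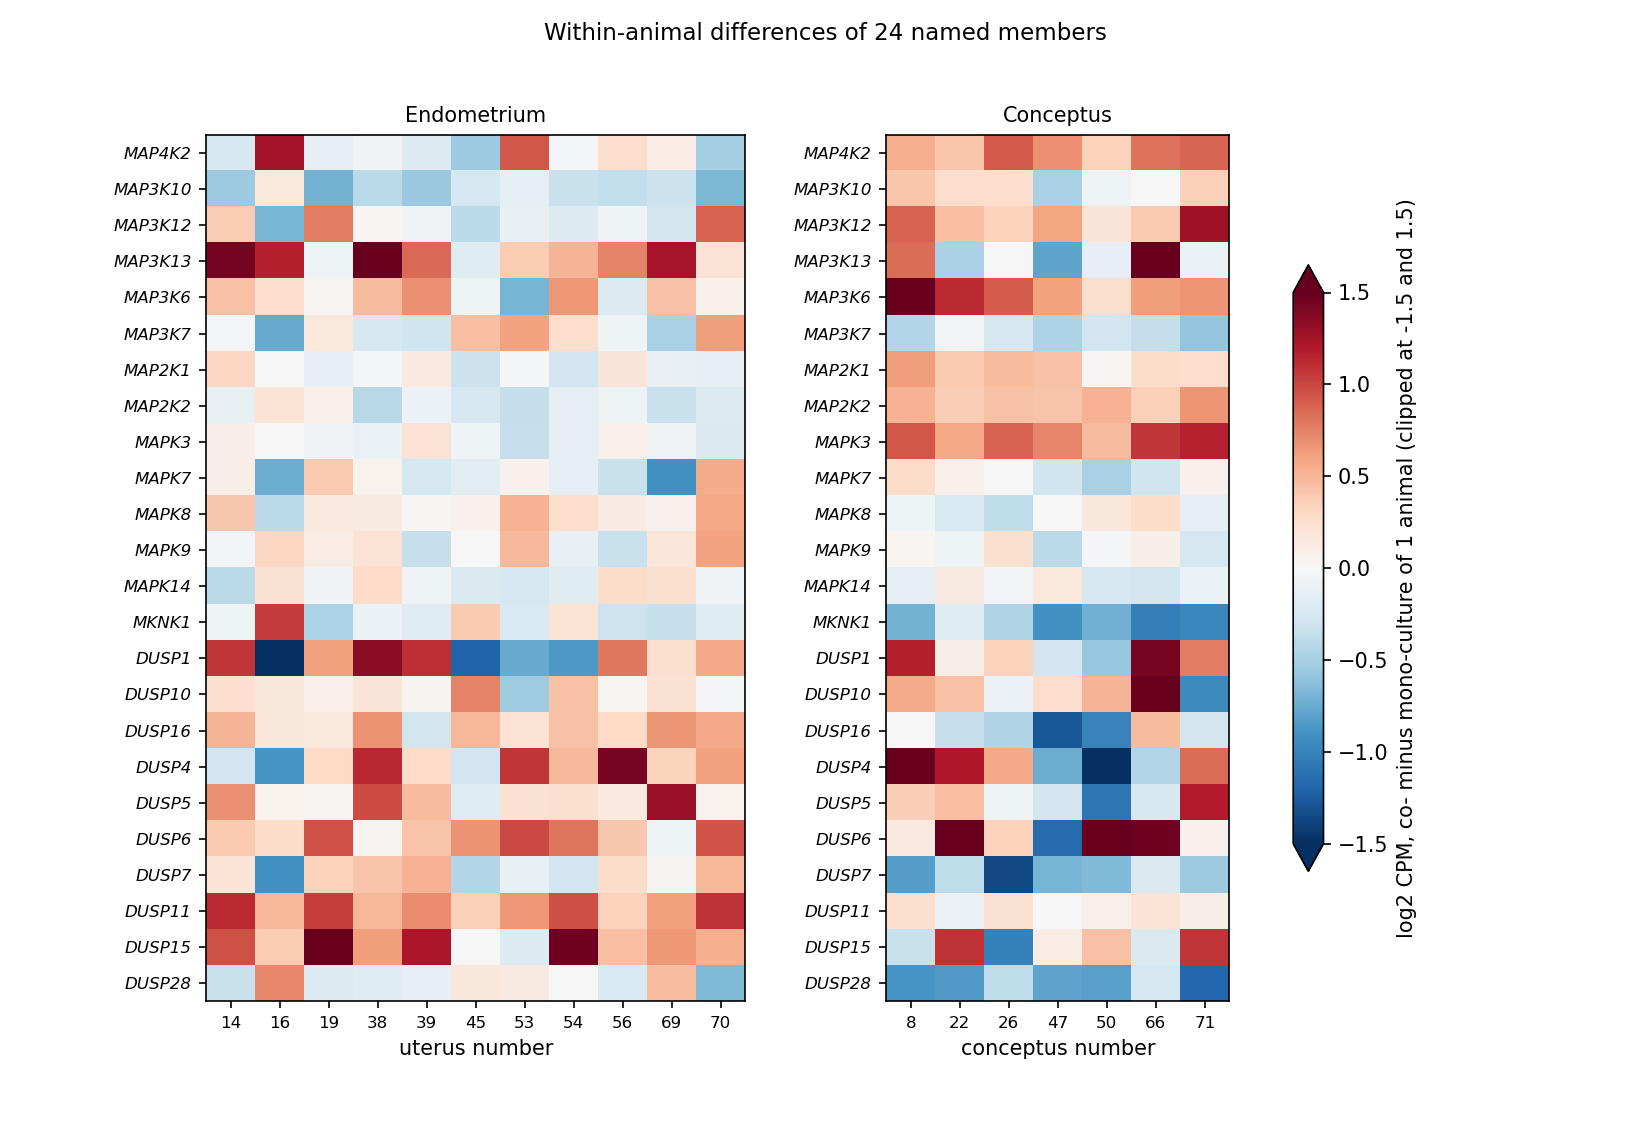
Within-animal difference of log2 CPM, co- minus mono-culture, for 24 named cascade genes (rows) in 11 uteri (left panel) and 7 conceptuses (right panel), with red for higher and blue for lower in co-culture and colors clipped at -1.5 and 1.5. MKNK1, DUSP7 and DUSP28 are blue and MAPK3, MAP2K2 and MAP4K2 red in all 7 conceptuses, and DUSP11 is red in all 11 uteri.

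Other genes of the pathway were taken from lists of the RAS and RAF step, Sprouty and SPRED inhibitors, immediate early genes and ETS factors, activators and scaffolds of JNK and p38, substrates of MNK, RSK and MK2, and growth factor receptors, which were drawn up with earlier results of these data known. In conceptus tissue, 7 of the 83 listed genes tested were called, 6 higher and 1 lower, and in endometrium 4 of 84, 3 higher and 1 lower, against 7.24% of all genes in conceptus tissue and 7.13% in endometrium. The median log2 fold change in conceptus tissue was 0.40 for the Sprouty and SPRED genes, 0.37 for the substrates and 0.25 for the immediate early and ETS genes, against 0.01 for all genes tested, and in endometrium it was 0.24, 0.05 and -0.04, against -0.04 for all genes tested. For the JNK and p38 activators and scaffolds it was 0.20 in conceptus tissue and 0.05 in endometrium. It was -0.06 and -0.01 for the RAS and RAF step, and -0.12 and 0.14 for growth factor receptors. SPRY1, a feedback inhibitor of receptor tyrosine kinase signaling that ERK activity induces, was the only listed gene called in both tissues. SPRY1 averaged 19.2 ± 7.28 CPM in co-cultured and 8.47 ± 3.48 CPM in mono-cultured conceptus tissue (log2 fold change 1.18 ± 0.31, edgeR adjusted p = 0.0341, higher in 7 of 7 conceptuses), and 1357 ± 444 CPM in co-cultured and 848 ± 240 CPM in mono-cultured endometrium (log2 fold change 0.68 ± 0.17, edgeR adjusted p = 0.0079, higher in 10 of 11 uteri). In conceptus tissue the call of SPRY1 held with the block (edgeR adjusted p = 0.0286) but not without conceptus 8, 22, 26, 47, 66 or 71 (edgeR adjusted p 0.0555 to 0.114).

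The other conceptus calls were 2 genes of the stress branch, 1 immediate early gene, 2 substrates and 1 gene of the RAS and RAF step. MAPK8IP3, a scaffold for JNK, averaged 10.6 ± 3.31 CPM in co-culture and 5.14 ± 1.53 CPM in mono-culture (log2 fold change 1.04 ± 0.21, edgeR adjusted p = 0.0126, higher in 7 of 7 conceptuses), and its edgeR adjusted p was 0.0528 without conceptus 47. GADD45B, a stress-induced activator of the p38 and JNK branches, had a log2 fold change of 1.28 ± 0.34 (edgeR adjusted p = 0.0328), JUNB, a subunit of the AP-1 transcription factor, 1.15 ± 0.30 (edgeR adjusted p = 0.0338), and ZFP36, an mRNA-destabilizing protein that MK2 phosphorylates, 1.02 ± 0.28 (edgeR adjusted p = 0.0413). Each of these was higher in 6 of 7 conceptuses. RPS6, the ribosomal protein that RSK and S6 kinases phosphorylate, had a log2 fold change of 0.66 ± 0.19 (edgeR adjusted p = 0.0431, higher in 7 of 7), and SOS1, the exchange factor that activates RAS, -0.70 ± 0.19 (edgeR adjusted p = 0.0411, lower in 7 of 7). With the conceptus as a block, GADD45B, JUNB, ZFP36, RPS6 and SOS1 had edgeR adjusted p of 0.0565, 0.0986, 0.0808, 0.0912 and 0.0602. With co-cultures summed as well, GADD45B (0.0457), RPS6 (0.0198) and SOS1 (0.0228) were called, and JUNB (0.0964) and ZFP36 (0.0782) were not. Leaving out single conceptuses ended the calls of RPS6 and SOS1 in each of 8 cases, of ZFP36 in 7 (all but conceptus 50), and of GADD45B and JUNB in 6 (without conceptus 5, 8, 22, 26, 47 or 71), with edgeR adjusted p from 0.0534 to 0.136.

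In endometrium, ELK4, an ETS transcription factor that MAPK phosphorylate, averaged 29.1 ± 7.53 CPM in co-culture and 17.6 ± 4.92 CPM in mono-culture (log2 fold change 0.72 ± 0.15, edgeR adjusted p = 0.0012, higher in 11 of 11 uteri). BAD, a pro-apoptotic protein that RSK inactivates, averaged 10.4 ± 1.27 CPM in co-culture and 14.5 ± 2.98 CPM in mono-culture (log2 fold change -0.48 ± 0.10, edgeR adjusted p = 0.0014, lower in 11 of 11 uteri). ELK4, BAD and endometrial SPRY1 kept their calls whichever uterus was left out. CREB1, a transcription factor that RSK and MSK phosphorylate, averaged 12.0 ± 3.64 CPM in co-culture and 8.47 ± 1.87 CPM in mono-culture (log2 fold change 0.50 ± 0.15, edgeR adjusted p = 0.0339, higher in 9 of 11 uteri), but had an edgeR adjusted p of 0.140 without uteri 38 and 69, of 0.0530 with the uterus as a block and co-cultures summed, and of 0.0544 to 0.0938 without uterus 14, 17, 38, 69 or 70. No growth factor receptor gene of 12 tested was called in either tissue by DESeq2 or by edgeR with culture as the only term. In both tissues, 0 had an unadjusted edgeR p under 0.05. In endometrium, the same 2 tests called none of the 19 genes of the RAS and RAF step or the 17 of the stress branch. Of these, 2 and 3 had an unadjusted edgeR p under 0.05.

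The cascade genes differed widely in how much they varied among libraries of 1 group. In mono-cultured conceptus tissue, the coefficient of variation over 8 libraries was 4.09% for MAP2K4, which encodes an activator of JNK, 8.04% for MAP2K2 and 8.22% for MAPK9, with a median of 26.3% over the 76 genes. In co-cultured endometrium it was 8.05% for MAPKAPK2 and 10.0% for MAP2K4, with a median of 25.6% over the 77 genes. The MAPK phosphatases, the p38 genes and the atypical MAPK genes varied more than the cascade as a whole in all 4 groups. The 9 or 10 MAPK phosphatase genes had median coefficients of variation of 66.2% in co-cultured and 49.6% in mono-cultured conceptus tissue and 30.8% in co-cultured and 39.8% in mono-cultured endometrium. The 4 p38 genes had medians of 54.5% and 42.8% in co- and mono-cultured conceptus tissue and 38.6% and 35.4% in co- and mono-cultured endometrium, and the 3 atypical MAPK genes 53.4%, 53.8%, 39.8% and 45.9% in the same groups. The MAP2K genes were among the groups that varied less than the cascade as a whole, with medians of 17.6% in co-cultured and 10.8% in mono-cultured conceptus tissue and 17.2% in co-cultured and 23.3% in mono-cultured endometrium.

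Some of this variation was seen between mono-cultured conceptuses, with 1 section each. MAPK4, encoding the atypical kinase ERK4, was at 11.5 to 160 CPM (median 39) in co-cultured and 3.04 to 183 CPM (median 97.7) in mono-cultured conceptus tissue. Mono-cultured conceptuses 8, 71, 47, 66, 26, 50, 22 and 5 had 183, 161, 144, 129, 66.0, 52.3, 19.5 and 3.04 CPM of MAPK4. In that order they had 262, 275, 280, 257, 111, 107, 99.1 and 49.0 CPM of MAP3K1, which encodes an activator of the JNK and ERK branches, and 5.72, 3.64, 4.21, 4.89, 17.5, 16.7, 36.6 and 29.3 CPM of MAP3K13. Thus the 4 conceptuses with the most MAPK4 also had the most MAP3K1 and the least MAP3K13, a description of 8 libraries on which no test was run. Sections of 1 conceptus could also differ. The 2 co-cultured sections of conceptus 47 had 160 and 39 CPM of MAPK4, against 144 CPM in its mono-cultured section. Those of conceptus 26 had 129 and 26.7 CPM, against 66.0 CPM. In conceptus 66, MAPK4 was at 36.1 CPM in co-culture and 129 CPM in mono-culture. Co-cultured sections also differed in MAP3K1 (conceptus 47, 341 and 157 CPM) and MAP3K13 (conceptus 26, 9.52 and 31.8 CPM). MAPK4 was lower in co-culture in 6 of 7 conceptuses and was not called (log2 fold change -0.28 ± 0.63, edgeR adjusted p = 0.829). MAPK4, MAP3K1 and MAP3K13 were singled out after their values were seen.

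**Figure D5:**
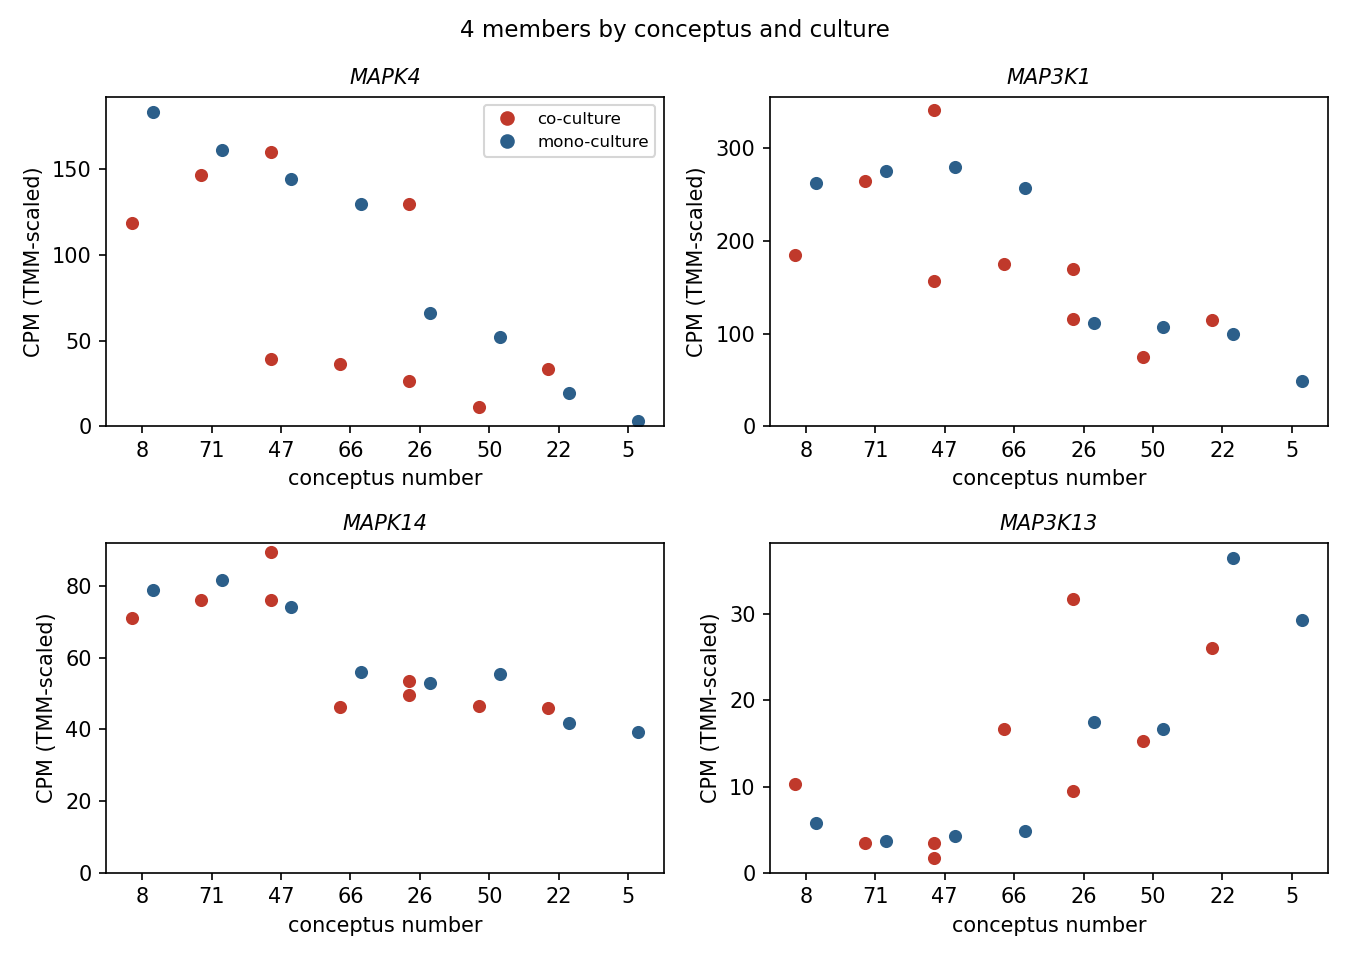
TMM-scaled CPM (vertical axes from 0) of MAPK4, MAP3K1, MAPK14 and MAP3K13 in each conceptus, with co-cultured sections (red, left) beside the mono-cultured section (blue, right); conceptus 5 had no co-cultured library. Conceptuses are ordered by their mono-cultured MAPK4 level, and in mono-culture the 4 with the most MAPK4 have 257 to 280 CPM of MAP3K1, against 49.0 to 111 CPM in the other 4.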

How the data were processed

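Reads were trimmed (Trimmomatic), mapped by the authors to the ARS-UCD1.2 bovine build (endometrial reads by STAR, conceptus reads by HISAT2) and summarised per gene by featureCounts. The 2 deposited tables hold raw counts. Tool versions, the strand option and the filter behind the smaller conceptus table: not given in the sources used here. Tissues were fitted apart and their levels not compared. Genes were kept by filterByExpr (minimum count 10, minimum total 15), scaled by TMM and tested with edgeR 4.0.16 (robust quasi-likelihood, culture as the only term, R 4.3.3), adjusting over all genes and calling at 0.05. The edgeR and limma steps were also run on simulated data with known differences. Those data held no animals shared between libraries, unlike the data here, and no result given here rests on that run. Within-animal differences of log2 CPM (prior count 2, co-cultures of 1 animal averaged) were compared between tissues with limma 3.58.1.

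Pairs of libraries from 1 animal, named in the titles, deviated together: all 15 endometrial pairs (median r 0.35) and all 9 conceptus pairs (median r 0.50) had r above 0.1. Alternatives were the animal as a replicate block, that block with co-cultures summed, RLE scaling, DESeq2 1.42.0, 2 RUVr factors (unwanted variation estimated from residuals), no filter, and leaving out each animal or uteri 38 and 69. Members, gene lists and the naming rule were chosen with earlier results of these data known. Named were MKNK1, 11 core MAPK and DUSP genes whatever their result, up to 10 called members each way per tissue, and up to 4 called genes per list and tissue. A few other genes were named after their values were seen, mostly as near misses or for comparison. Depths are total counts, which limit counting error only. A planned search for motifs in promoters was not run, since no sequence was used here, and 1 gene is not reported here.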

Additional observations from a re-analysis of the deposited data

Results flagged for a closer look

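Among 50 sets of values (25 named genes in the 2 conceptus groups), 4 held a library far from the rest, where chance gives about 1 in 20 such sets. In co-culture, the section of conceptus 50 was lowest for MAP2K1, at 75.4 CPM against 105 CPM for the next, and a section of conceptus 47 was lowest for MAPK9, at 10.4 CPM against 14.3 CPM. In mono-culture, conceptus 22 was highest for MAP4K2, at 36.6 CPM against 23.4 CPM, and conceptus 5 was highest for DUSP10, at 2.84 CPM against 0.996 CPM.

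The response to co-culture differed between 11 uteri and 7 conceptuses in 10 named genes by limma (adjusted p from 1.1e-04 to 0.0385), given here as the log2 difference, endometrium minus conceptus. It was positive for DUSP16 (0.77), DUSP7 (0.72), DUSP28 (0.72), MKNK1 (0.69) and DUSP11 (0.61). It was negative for MAPK3 (-0.89), MAP3K6 (-0.63), MAP2K2 (-0.62), MAP3K10 (-0.48) and MAP2K1 (-0.39). Of all 12406 genes tested, 24.6% differed. Many of the named genes were named because they were called in 1 tissue from the same libraries. With only the first co-culture of each animal, MKNK1, DUSP7 and MAP3K6 were past the threshold (limma adjusted p = 0.0578, 0.0511 and 0.213).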

How the results depend on the processing

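In endometrium, the 5 members called higher became 8 with RUVr factors, 2 without the filter, 3 without uteri 38 and 69, and 2 to 5 when single uteri were left out, and the 1 called lower became 3 with the replicate block, 3 with the block and summed co-cultures, 6 with RUVr, 2 with DESeq2, 2 without uteri 38 and 69, and 1 to 2 without single uteri. In conceptus tissue, the 6 called higher became 3 with the block, 9 with the block and summed co-cultures, 9 with RUVr, 7 with DESeq2 and 2 to 6 without single conceptuses, and the 4 called lower became 2 with the block, 8 with the block and summed co-cultures, 10 with RUVr, and 2 to 5 without single conceptuses. The 19 members whose response differed between tissues became 12 with the first co-culture only, which uses fewer libraries. The cause of these shifts was not tested. The share of all genes called moved with them. In endometrium it was 17.2% with RUVr and 4.49% without the filter, against 7.13%. In conceptus tissue it was 4.43% with the block, 14.7% with the block and summed co-cultures, 28.9% with RUVr, 13.5% with DESeq2 and 0.658% to 8.70% without single conceptuses, against 7.24%. No named gene called in a tissue reversed its sign under any of these alternatives, and DUSP11, DUSP15 and MAP3K10 in endometrium and MKNK1, MAPK3, MAP2K2 and DUSP28 in conceptus tissue kept their calls in all of them. The conceptus calls came close to the threshold, with a highest edgeR adjusted p of 0.0489 for MAP2K2 and 0.0436 for the other genes. In endometrium the highest was 4.7e-05 for DUSP11, 0.0355 for DUSP15 and 0.0241 for MAP3K10. Neither form of the replicate block changed a member's call other than those given with the results. The 7 conceptuses and 11 uteri in both cultures limit the precision, and no detection limit was computed.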
